A study of Caenorhabditis elegans with 2 samples.

Results

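The regions described here are the stretches of the Caenorhabditis elegans X chromosome where chromatin immunoprecipitation of SNPC-1.1 gave a called region whose summit had no annotated tRNA gene start within 500 bp. Of the 30000 regions called on the pooled replicates, 3778 lay on X, 237 of these fell within the tRNA limit, and 3541 were left as members. The same filter left 25889 of 26194 regions on the 5 autosomes, which serve as the comparison. All worms were young adult hermaphrodites of strain YL482, collected whole; they stably express SNPC-1.1 (C06A8.2) with a GFP and FLAG tag at its C terminus. The antibody was against GFP, the chromatin was sonicated, and 2 biological replicates formed 1 group without a second condition. The labels give the age as unknown and do not name the promoter of the transgene. Whole animals mix germline and somatic nuclei, so fewer cells with binding and less binding per cell cannot be told apart.

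SNPC-1.1 belongs to the worm version of SNAPc, a complex that activates small nuclear RNA (snRNA) genes. In animals SNAPc recognises a short element, the proximal sequence element, that lies upstream of genes for small nuclear RNAs, and it serves both RNA polymerase II and RNA polymerase III promoters of this kind. The worm X chromosome is present as a pair in hermaphrodites, its transcription is lowered in somatic cells by the dosage compensation complex, and it is largely silent through much of germ cell development. Genes with germline expression are scarce on X, while tRNA genes are plentiful there, and tRNA starts were set aside for this reason: 276 nuclear tRNA genes are annotated on X and 336 on the 5 autosomes together.

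Region lists hold a signal per region that is the authors' own score, on a scale not stated, so it was read only as an order within 1 list. On the pooled list the members' signals ran from 14.8 to 1064 with a median of 19.5, against a median of 20.5 and a maximum of 2984 on the autosomes. The pooled ranks stand beside those in the list of replicate 1 (29523 regions) and the list of replicate 2 (26195 regions). The lists give no read totals, so the depth of each sample is unknown. The authors' set of 1500 reproducible peaks held exactly the pooled regions ranked 1 to 1500, of which 82 were members; these are called the leading members. With 1 group, no test between conditions was possible: spread is shown by the pooled list and both replicate lists side by side, and exact (Clopper-Pearson) 95% binomial intervals cover counting error only, treating neighbouring regions as independent. Of the members 27.7% overlapped a region in both replicate lists and 16.9% overlapped none, against 36.6% and 12.9% of autosomal regions. Among the 82 leading members 81 overlapped a region in both lists. The exception was a site at 5923585, which had rank 827 in replicate 2 and no region in replicate 1. These overlaps were with regions of any rank. Fewer, 55 of the 82 (67.1%), overlapped a top 1500 region in both lists, against 63.8% of autosomal leading regions.

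Of the leading members 42 of 82, beside 18.4% of leading regions on all nuclear chromosomes, carried with at most 2 mismatches a sequence that recurs at small RNA genes on other chromosomes, and the strongest members are shown here for that reason. A consensus was read from leading peaks at snRNA, SL2 or snoRNA starts on chromosomes II to V, so that no X sequence took part in making it. Of 150 such peaks it used the 35 that hold the word CGGAACCC, so the letters of that word were fixed by the choice and the consensus does not stand for all 150. It spans 21 positions, of which 17 had a letter present in at least 60% of the 35 peaks:
consensus: GCGGAACCCGNNANNTGTCGG
The best match within 50 bp of the summit is given below for the 6 members of highest signal, with 10 bases before it and 30 after it, read from the RefSeq WBcel235 assembly on the strand of the match. Capitals mark the fixed letters of the consensus that the site shares.
cel-mir-8196b (chrX:14324529-14324589, minus strand): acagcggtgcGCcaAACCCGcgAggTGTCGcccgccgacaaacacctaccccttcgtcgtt
cel-mir-8196a (chrX:2328915-2328975, plus strand): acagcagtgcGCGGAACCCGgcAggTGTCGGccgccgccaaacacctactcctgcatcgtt
T21F2.3 (chrX:16722125-16722185, minus strand): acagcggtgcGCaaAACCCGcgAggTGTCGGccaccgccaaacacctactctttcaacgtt
K08B5.8 (chrX:16564657-16564717, plus strand): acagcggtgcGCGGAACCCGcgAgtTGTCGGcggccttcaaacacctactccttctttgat
no start near, rank 95 (chrX:16565927-16565987, plus strand): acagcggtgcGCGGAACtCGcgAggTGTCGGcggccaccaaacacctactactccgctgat
no start near, rank 126 (chrX:16566527-16566587, plus strand): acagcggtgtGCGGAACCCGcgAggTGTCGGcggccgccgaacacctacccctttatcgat

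These 6 windows resembled each other beyond the consensus. Over the 40 flanking letters the 15 pairs among them were identical at a median of 80% of positions (range 75 to 87.5%). The other 12 of the 20 highest members that matched the consensus with at most 3 mismatches had a median identity of 50% among themselves (range 20 to 85%) over 66 pairs, and of 50% to the first 6 over 72 pairs. The next set shows members lower in the order, at introns, intergenic sites and, at unc-2, a noncoding gene, where the flanks differ from those above but resemble each other in part:
jbts-14 (chrX:8703828-8703888, minus strand): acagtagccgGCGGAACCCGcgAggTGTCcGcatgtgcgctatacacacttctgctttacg
ifta-1 intron (chrX:5548034-5548094, minus strand): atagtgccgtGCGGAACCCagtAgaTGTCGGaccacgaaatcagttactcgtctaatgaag
no start near, rank 257 (chrX:15345526-15345586, plus strand): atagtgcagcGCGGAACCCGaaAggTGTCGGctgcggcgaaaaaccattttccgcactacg
unc-2 (chrX:2763956-2764016, plus strand): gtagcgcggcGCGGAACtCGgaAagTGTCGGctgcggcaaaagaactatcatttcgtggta
gbb-1 intron (chrX:2960870-2960930, minus strand): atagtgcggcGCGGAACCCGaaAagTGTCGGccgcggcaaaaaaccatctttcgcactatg
no start near, rank 425 (chrX:15892688-15892748, minus strand): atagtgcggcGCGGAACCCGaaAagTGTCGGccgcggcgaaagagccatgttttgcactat

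The first comparison asked how densely X was occupied once tRNA starts were set aside. Away from tRNA starts, X held fewer regions per length than any autosome, and the gap was widest among the strongest regions. That widening was not seen when regions at tRNA starts were counted too. Members numbered 199.8 per Mb of X, against 314 per Mb over the autosomes, where single chromosomes ran from 263 (V) to 369 (III). Replicate 1 alone gave 215 on X against 305 on the autosomes, and replicate 2 alone gave 172 against 274. The X value was below the lowest autosome in all 3 lists. Of all nuclear regions kept, 12% were on X, which holds 17.7% of nuclear bases and 13.7% of nuclear protein-coding genes.

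**Figure D1:**
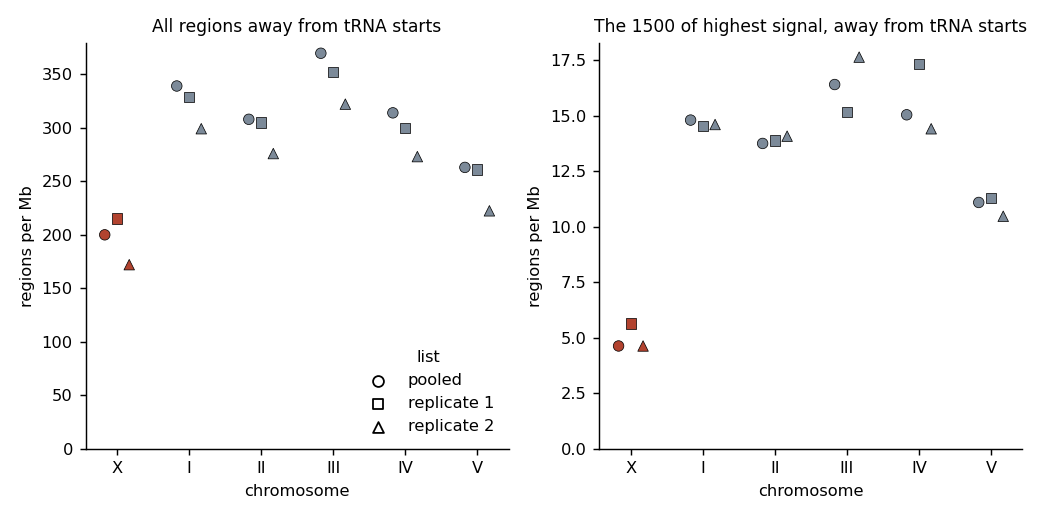
Regions per Mb of chromosome, away from tRNA starts, for all regions (left) and for those among the 1500 of highest signal of each list (right), with X first and the autosomes after it; marker shapes are the pooled list and both replicate lists. X lies below every autosome in each list, at 199.8 and 4.63 per Mb in the pooled list.

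Counted per gene, the order was different. Per protein-coding gene there were 1.30 members on X and 1.50 regions on the autosomes, and chromosome V, at 1.1, was lower than X. In replicate 1 the values were 1.40 and 1.46, in replicate 2 they were 1.12 and 1.31, and chromosome V was again below X in both. Over all regions X was thus below every autosome per base but not per gene. Among the 1500 of highest signal, and away from tRNA starts, X was below every autosome per gene too. It held 0.0300 per protein-coding gene, against 0.0669 on the autosomes and 0.0465 on V, the lowest autosome.

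Signal ranks were lower on X as well. The median member lay at 56.3% of the pooled list (0% being the highest signal), against 50% for autosomal regions and 48.6 to 52.5% for single autosomes. The replicates gave 56.0% on X against 49.9% on the autosomes, and 56.5% against 50%. Among the 1500 regions of highest signal were 82 members, 2.32% of them (interval 1.85 to 2.87%), against 1154 autosomal regions, 4.46% (4.21 to 4.72%); over all nuclear regions kept the share was 4.2%. Replicate 1 gave 2.62% on X against 4.68% on the autosomes, and replicate 2 gave 2.69% against 5.09%. In length terms the leading members came to 4.63 per Mb of X, against 14.0 per Mb on the autosomes, a ratio of 0.331, where all regions together gave 0.637. These values rest on the tRNA limit, which kept 82 of 196 reproducible peaks on X and 1154 of 1277 on the autosomes. Without the limit the share of X regions among the 1500 was not below the autosomal share.

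Away from tRNA starts, the thinning of X toward the top of the list was gradual. With each list cut by rank into 10 equal parts, X held 7.52% of the kept regions in the highest part of the pooled list, 9.10% in the next and 10.2% in the third, and between 12.5 and 13.7% in each of the other 7. Replicate 1 began at 7.79% and ended at 14.6%, and replicate 2 began at 6.41% and ended at 14.2%. At the very top the numbers are small: 5 members among the 100 highest regions of the pooled list and 24 among the 500 highest, beside 74 and 389 autosomal regions.

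**Figure D2:**
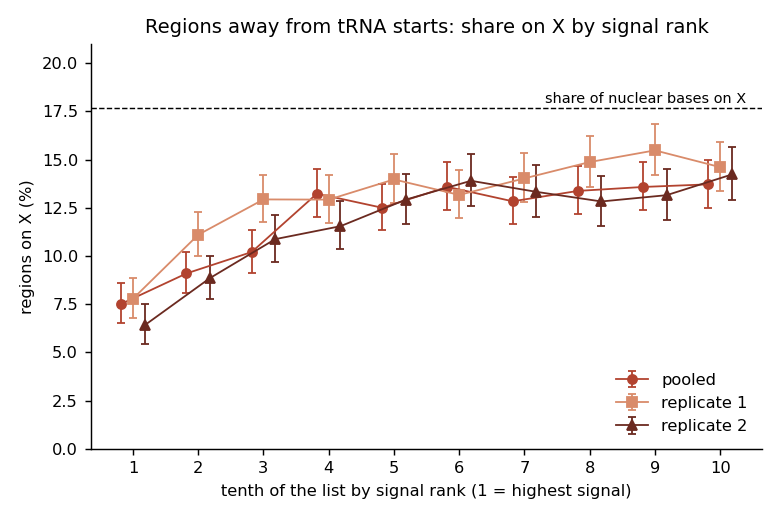
Percent of kept regions that lie on X (vertical axis) in each of 10 equal parts of a list ordered by signal, from the highest signal on the left, for the pooled list and both replicates; bars are exact 95% binomial intervals and the dashed line is the 17.7% of nuclear bases that X holds. In the pooled list the share is 7.52% in the highest part and 13.7% in the lowest, and every point lies below the line.

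The regions also differed in what they lay next to. On X the leading members were seldom at protein-coding promoters. Of the 82, 8 (9.76%, interval 4.31 to 18.3%) had a protein-coding start within 500 bp, against 599 of 1154 on the autosomes (51.9%, 49.0 to 54.8%). Replicate 1 alone gave 11% of its leading X regions against 47.8% on the autosomes, and replicate 2 gave 13.4% against 51.6%. No annotated gene start of any kind lay within 500 bp of 63 leading members (76.8%), against 334 autosomal ones (28.9%), and single autosomes ran from 24.7 to 34.5%. The replicates gave 75% on X against 32.4%, and 72.0% against 29.2%. The gap narrowed down the list: over all members 17.6% were near a protein-coding start and 72.5% near no start, against 27.4% and 61.7% of autosomal regions.

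**Figure D3:**
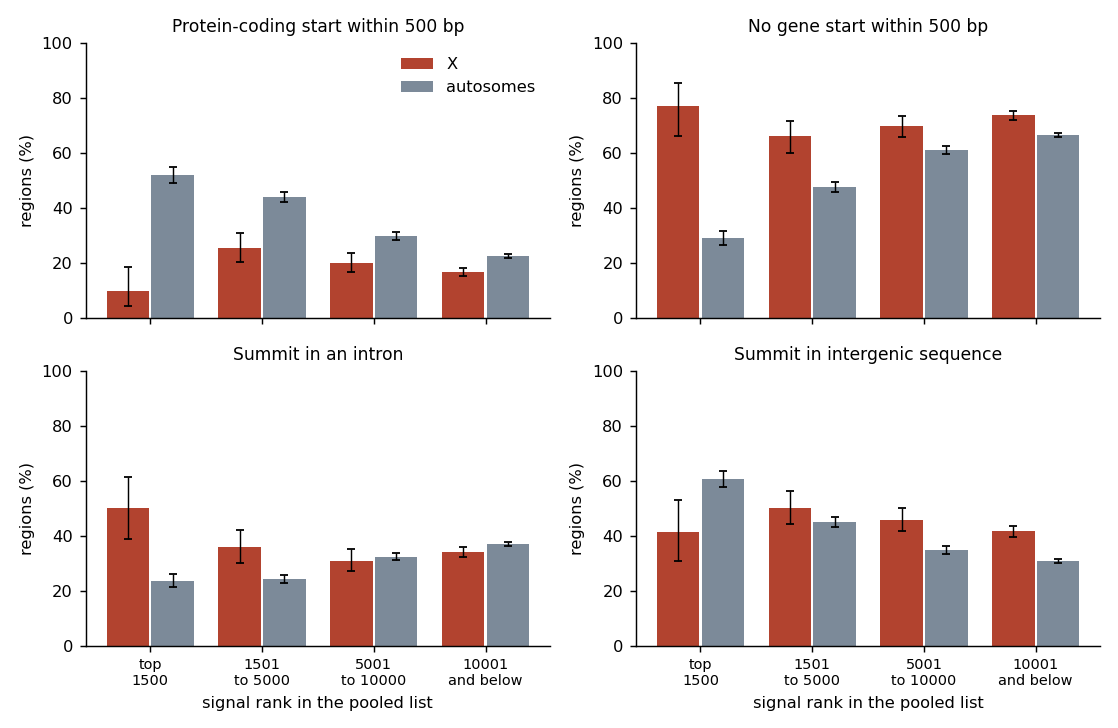
Percent of regions (vertical axes) by class of signal rank in the pooled list, X left of autosomes, for summits within 500 bp of a protein-coding start, with no start in that window, in an intron and in intergenic sequence; bars are exact 95% binomial intervals. Among the top 1500, 9.76% of X regions and 51.9% of autosomal regions have a protein-coding start near, and the difference shrinks in the lower classes.

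Seen from the genes, 593 of 2731 protein-coding genes on X had a member within 500 bp of the start (21.7%), against 6858 of 17242 on the autosomes (39.8%); over both the share was 37.3%. Replicate 1 gave 23.6% on X against 37.3%, and replicate 2 gave 19.9% against 36.7%. For reproducible peaks the share was 8 of 2731 on X (0.293%) and 792 on the autosomes (4.59%), with 4.01% over both. The distance from summit to the nearest protein-coding start had a median of 2330 bp for leading members, with quartiles of 903 and 4211 bp, and of 452 bp for the autosomal leading regions. Over all members it was 1819 bp, against 1234 bp.

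Most leading members lay in introns, at a share above that on the autosomes, or between genes, at a share below it. Of the 82 summits 41 (50%, interval 38.7 to 61.3%) were in introns of protein-coding genes, 34 (41.5%) were intergenic, 1 was in a coding exon and none was in a UTR, which allows a share of up to 4.40%. On the autosomes 23.6% of leading summits were intronic, 60.6% intergenic and 8.41% in UTRs. In the replicates 47 and 41.5% of leading X summits were intronic, against 23.6 and 23.4% on the autosomes. Introns make up 30.6% of X and 33.6% of the autosomes, and intergenic sequence 41.0% and 31.6%. Over all 3541 members 42.8% of summits were intergenic, 34.1% intronic, 13.7% in coding exons and 6.83% in UTRs, where these take 41.0, 30.6, 20 and 4.92% of X bases. The 41 intronic summits lay in 38 different genes, with 3 of them in H40L08.3.

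Small RNA genes were the nearest thing to the targets known for SNAPc. Within 500 bp of leading members lay 4 snoRNA, 3 miRNA and no snRNA starts, 7 members in all (8.54%, interval 3.5 to 16.8%), against 187 autosomal regions (16.2%). X has few genes of the kind: 3 are annotated as snRNA, 33 as snoRNA and 74 as miRNA, and none as SL2, the spliced leader RNA, against 96, 313, 187 and 18 on the autosomes. Of the 33 snoRNA genes on X 11 (33.3%) had a member and 4 a leading one, against 63.9% and 29.4% of the 313 autosomal snoRNA genes. In the pooled list the intervals for any region, 18 to 51.8% on X and 58.3 to 69.2% on the autosomes, do not overlap. Those for reproducible peaks, 3.4 to 28.2% and 24.4 to 34.8%, do. For any region, replicate 1 gave 42.4% on X (25.5 to 60.8%) against 61.7% (56.0 to 67.1%), and these intervals overlap. With replicate 2 the values were 30.3% (15.6 to 48.7%) and 59.7% (54.1 to 65.2%), without overlap. Of the 74 miRNA genes on X 14.9% had a member, against 43.3% on the autosomes, but replicate 1 alone gave 31.1% on X and replicate 2 gave 16.2%, so the X value moved with the list. Of the 3 snRNA genes, M163.13 had a member at rank 2877 and F20D1.21 at rank 28884, with summits 487 bp downstream of the first start and 457 bp upstream of the second.

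The strongest members lay beside small noncoding RNA genes. The summit at cel-mir-8196b (14324355 to 14324517, minus strand, a miRNA gene inside an intron of prx-1, which encodes a peroxisome biogenesis factor and runs on the other strand) was at 14324574, 57 bp upstream of the start. It had a pooled signal of 1064, rank 46 in the pooled list, 46 in replicate 1 and 50 in replicate 2. The summit at cel-mir-8196a (2328994 to 2329124, plus strand), a related miRNA gene, was at 2328957, 37 bp upstream, with a signal of 773 and ranks of 72, 68 and 66. The order of these 2 genes was the same in each list.

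T21F2.3 (16721943 to 16722113, minus strand), annotated as a snoRNA gene, had its summit at 16722163, 50 bp upstream, with a signal of 686 and ranks of 78 pooled, 65 in replicate 1 and 90 in replicate 2. K08B5.8 (16564730 to 16564828, plus strand), annotated only as a noncoding RNA gene, had a summit 50 bp upstream at 16564680, with a signal of 583 and ranks of 88, 77 and 99. At all 4 genes the consensus match was on the gene's own strand, and its last letter lay 42 bp upstream of the start of cel-mir-8196b, 49 bp for cel-mir-8196a, 42 bp for T21F2.3 and 43 bp for K08B5.8. The match differed from the consensus at 3, 0, 2 and 0 of the 17 fixed letters in that order.

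K08B5.8 had neighbours of nearly its own strength with no annotated start. Summits at 16565950 and 16566572 had signals of 554 and 405, pooled ranks of 95 and 126, ranks of 83 and 120 in replicate 1 and of 113 and 129 in replicate 2, and matched the consensus with 1 and 0 mismatches on the same strand as K08B5.8. The nearest protein-coding start, of K08B5.1, was 7516 and 8138 bp away, and the nearest tRNA start 7008 and 7630 bp away. Another leading member near them, at 16575459 with a signal of 133, had ranks of 335 pooled, 413 and 378. These first 6 members were also the narrowest, at 165 to 228 bp, while 76 of the 82 had the full width of 320 bp.

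Below rank 126 the next member had rank 203, and the signals had fallen to 213 and under. M163.14 (14478464 to 14478527, plus strand), a snoRNA gene, had a summit 51 bp upstream with a signal of 203 and ranks of 213, 198 and 204; the noncoding gene M163.20 starts 455 bp from it. That summit was 536 bp from the nearest tRNA start, just outside the limit, and its best match had 8 mismatches. T09B9.10, another snoRNA gene, had a summit 36 bp upstream with a signal of 105 and ranks of 502, 304 and 1279, and the piRNA gene 21ur-15084 starts 253 bp away. C53B7.8 (snoRNA, signal 81.4) and cel-mir-4812 (miRNA, signal 79.0, in an intron of piki-1) completed the 7, with ranks of 828 and 873. These 4 lacked a close consensus match, with 8, 5, 8 and 6 mismatches.

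The protein-coding genes with a leading member were few. The summit nearest a start was at pkhm-2, 204 bp upstream with a signal of 78.5 and 7 mismatches. The highest were at jbts-14, whose human counterpart encodes a protein of the ciliary transition zone (signal 213, summit 453 bp upstream, ranks 203, 208 and 212), unc-2, a neuronal voltage-gated calcium channel subunit (signal 145, 461 bp upstream, ranks 304, 237 and 453), and F54G2.1 (signal 136, 395 bp inside the gene, ranks 323, 313 and 385). Each of these 3 summits matched the consensus with 1 mismatch. The unc-2 summit lay inside the noncoding gene F25H10.3, with F25H10.4 and F25H10.5 starting 483 and 186 bp away, and C09B7.8 starts 297 bp from the F54G2.1 summit. The other members of this group were at serp-1.1, acl-1, an acyltransferase gene, epn-1, which encodes the endocytic adaptor epsin, and ZK816.3, with signals of 75.4, 69.9, 62.8 and 62.6 and 7 to 9 mismatches. Among these 8 the replicate ranks lay furthest apart at ZK816.3, with rank 5512 in replicate 1 and 956 in replicate 2, and at serp-1.1, with 3383 and 653.

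Of the 5 highest members without a start, 3 have been given or stand in the sequences: the pair beside K08B5.8 and the site at 15345561 (signal 166, ranks 257, 260 and 297, no mismatch). The other two were an intronic site of ifta-1, a gene of the intraflagellar transport machinery of cilia (summit 5548076, signal 177, ranks 238, 221 and 309, 1 mismatch), and an intergenic site at 5753320 (signal 153, ranks 284, 254 and 330, 2 mismatches). The remaining members among the 20 highest were intronic sites of lgc-40, a ligand-gated ion channel gene (signal 147), nhr-28, a nuclear hormone receptor gene (139), gbb-1, a GABA-B receptor subunit gene (134), nac-1, a sodium-coupled dicarboxylate transporter gene (129) and R02E4.1 (115), and the intergenic site at 15892712 (116). Of the 20, the lgc-40 and M163.14 sites had 8 mismatches and the other 18 had 3 or fewer.

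Other classes of gene start held weaker members. The highest at long intergenic noncoding RNA genes were linc-142, linc-78 and linc-100, with pooled ranks of 3405, 9615 and 10671 and no region in replicate 1. The highest at antisense RNA genes was F19C6.8, rank 10366, followed by anr-16, rank 28534, with no region in either replicate list. After 21ur-15084 the piRNA genes with the highest members were 21ur-13424 and 21ur-15153, ranks 2856 and 4023. Among pseudogenes, WBGene00023401 (1643850 to 1643922) had a summit 29 bp inside it with a signal of 74.2 and ranks of 990, 2461 and 880, and WBGene00021342 and WBGene00022222 shared 1 member at rank 8193. RefSeq annotates 29 tRNA pseudogenes on X, which the tRNA limit did not remove, and 4 members, 1 of them a leading one, lay within 500 bp of such a start.

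The sequence comparison asked how common the words of small RNA promoters were at members of each strength. The 10 words of 8 letters most over-represented at 150 leading peaks by snRNA, SL2 or snoRNA starts on chromosomes II to V, against flanks 1000 bp away, were led by CGGAACCC, GCGGAACC and CGGGTTCC. Words were counted on both strands and overlap each other. The others were GAACCCGC, AACCCGCG, AAACCCGC, CGAAACCC, CGGGTTTC, GCGAAACC and ACCCGCGA. CGGAACCC was within 50 bp of the summit in 23.3% of those 150 peaks and in 0.667% of 300 flanking windows.

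On X 33 of the 82 leading members (40.2%, interval 29.6 to 51.7%) held at least 1 of the 10 words within 50 bp of the summit, against 197 of 1154 on the autosomes (17.1%, 14.9 to 19.4%) and 18.6% over both. Single autosomes had 12.4 to 20.3%. The autosomal regions include the 150 peaks from which the words were taken. In windows 1000 bp to either side the share was 1.22% on X and 0.823% on the autosomes. Autosomal leading regions included many at protein-coding starts, where 6.08% held a word. Among leading regions with no start near, 26 of 63 on X (41.3%, interval 29.0 to 54.4%) and 76 of 334 on the autosomes (22.8%, 18.4 to 27.6%) held one, with single autosomes from 16.7 to 29.6%. By place, it was 40.5% of the X introns without a start near and 34.6% of the autosomal ones, with overlapping intervals (24.8 to 57.9% and 26.4 to 43.6%), and 45.8% of X intergenic sites against 24 of 145 autosomal ones (25.6 to 67.2% and 10.9 to 23.6%).

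The share dropped with rank on X and on the autosomes. Between ranks 1500 and 5000 it was 13.6% on X and 3.85% on the autosomes. Beyond rank 10000 it was 1.20% on X and 1.16% on the autosomes, with 0.678% and 1.04% in the flanks. Over all members 118 (3.33%) held a word, against 2.29% of autosomal regions and 2.42% over both. Promoters in general seldom held one: of windows of the same length centred 50 bp upstream of starts, 0.659% of X and 0.713% of autosomal protein-coding genes did, as did 1 of 33 snoRNA and 5 of 74 miRNA genes on X. On the autosomes 10.9% of snoRNA, 2.67% of miRNA, 43.8% of snRNA and 55.6% of SL2 promoters held a word; the words were chosen at snRNA, SL2 and snoRNA genes of chromosomes II to V, so those shares are no independent measure.

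**Figure D4:**
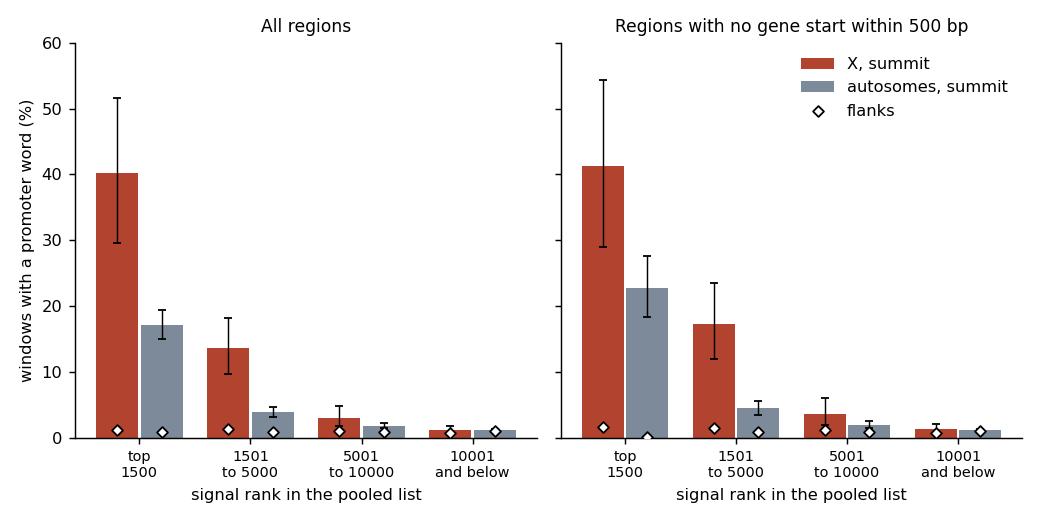
Percent of regions holding at least 1 of the 10 promoter words within 50 bp of the summit (vertical axis) by class of signal rank, X left of autosomes, for all regions and for those with no gene start within 500 bp; bars are exact 95% binomial intervals and diamonds are windows 1000 bp to either side. In the top 1500 the share is 40.2% on X and 17.1% on the autosomes, and in the lowest class it is 1.20% on X and 1.16% on the autosomes.

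The consensus gave the same order as the words. Of the 82 leading members 42 (51.2%) matched it with at most 2 mismatches, against 185 of 1154 autosomal regions and 18.4% over both, while no flanking window of an X member did. The autosomal regions include the 35 peaks from which the consensus was read. Among those with no start near it was 35 of 63 on X (55.6%) and 83 of 334 on the autosomes (24.9%). Members with a word had their summit a median of 15 bp from the middle of the best match. The search was confined to 50 bp on either side of the summit, which bounds this distance, so it is no measure of centring. In the 17 introns of a single host gene with a word, the match was on the host's strand in 10 and on the other in 7.

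Scanning whole chromosomes for the consensus, again away from tRNA starts, put these members among all sites of that sequence. X had 351 matches with at most 2 mismatches, 19.8 per Mb, against 1150 on the autosomes, 13.9 per Mb; single autosomes ran from 7.69 (III) to 19.5 (IV). Of the X matches 238 (67.8%, interval 62.6 to 72.7%) lay inside a called region, against 63.0% on the autosomes (60.2 to 65.8%). Replicate 1 gave 63.5% on X against 57.7%, and replicate 2 gave 59.5% against 61.9%, so the direction differed between replicates. Matches inside a reproducible peak were 64 on X (18.2%, interval 14.3 to 22.7%) and 291 on the autosomes (25.3%, 22.8 to 27.9%). By single autosome this share ran from 20.9% (II) to 36.8% (III), and II and V (21.7%) lay inside the X interval. The autosomal matches include sites in the 35 leading peaks from which the consensus was read, so the autosomal shares are no independent measure. The density of the sequence was therefore higher on X than on the autosomes together, while called regions counted together, with or without a match, were less dense there. On X 84.3% of matches had no gene start within 500 bp, against 59.0% on the autosomes. That share varied widely between autosomes, from 31.6% on IV to 82.1% on III, which was close to X.

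The matches and the leading members both lay mostly in the outer parts of X, though not in the same proportions. With X cut into 10 equal lengths from its left end, the ninth had 28 leading members and 118 matches, the last had 15 and 78, and the second had 17 and 41. The first had fewer leading members than the second but more matches, 5 and 54, and the eighth had 6 and 34. The fifth, the sixth and the seventh had 3, 1 and 1 leading members and 4, 2 and 3 matches. All members were spread more evenly, from 268 in the fifth to 499 in the ninth. Of the leading members 79.3% (interval 68.9 to 87.4%) lay in the outer 40% of the chromosome, counted from both ends, as did 45.6% of all members, 82.9% of the matches and 36.4% of the protein-coding starts of X. On the autosomes 33.2% of leading regions, 36.6% of all regions and 73.1% of matches did. For the matches, single autosomes ran from 56.6% (III) to 81.0% (IV), the latter close to X. For leading regions with no start near, it was 77.8% on X and 38.0% on the autosomes. Of the leading members with a word, 78.8% lay in the outer 40%, against 45.7% of autosomal leading regions with a word. Single autosomes ran from 38.3 to 52.9%.

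**Figure D5:**
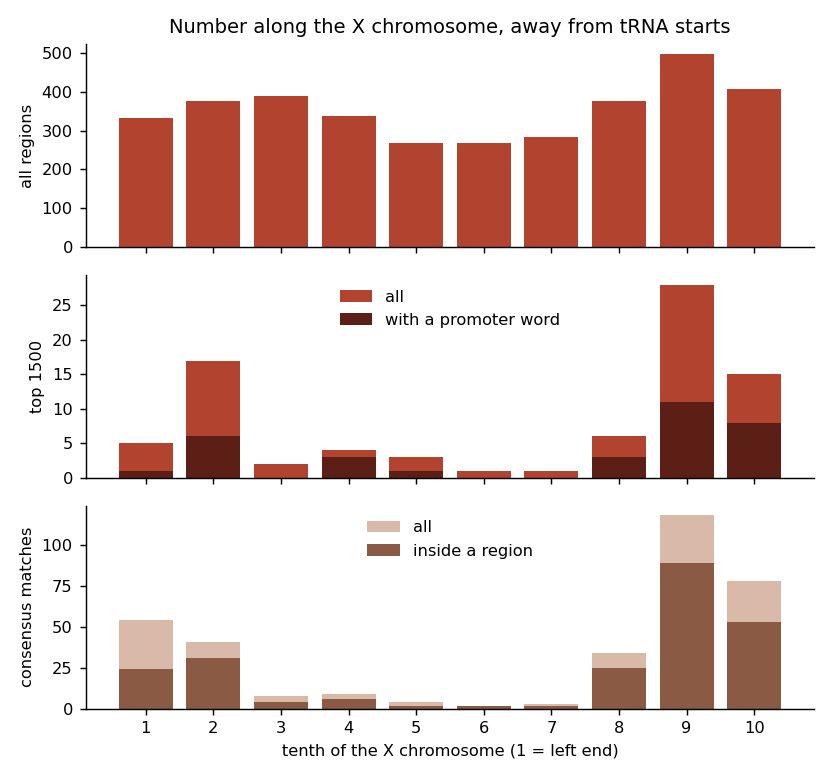
Numbers along X in 10 equal lengths from the left end: all members (top), leading members with those that hold a promoter word in dark (middle), and consensus matches of at most 2 mismatches with those inside a called region in dark (bottom). The ninth has 499 members, 28 leading members and 118 matches, and the sixth has 269, 1 and 2.

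Base composition and repeats moved with rank. The median GC content within 50 bp of the summit was 52.5% at leading members and 34.7% over all members, against 45.5% and 34.7% on the autosomes, where X as a whole has 35.2%. Flanking windows of leading members had 35.4%. Soft-masked repeats covered a mean of 26.4% of leading members and 31.6% of all members, against 30.6% of X bases. Of the leading members 86.6% had over 90% of their 31-base words found once in the genome, as did 90.9% of those with a promoter word, against 82.3% and 64.0% of the autosomal ones. The part that GC content or read mapping plays in these differences was not tested.

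The gene lists covered dosage compensation, tissues, germline and housekeeping genes. Their counts are descriptions beside the shares of all protein-coding genes, 21.7% on X and 39.8% on the autosomes for any region, and 0.293% and 4.59% for reproducible peaks. Of 6 dosage compensation and X counting genes on X, 3 had one, against 6 of 8 on the autosomes: sdc-1, a zinc finger gene of dosage compensation (rank 17985, summit 22 bp upstream), ceh-39, a homeobox X signal element (rank 22348), and fox-1, an RNA-binding X signal element (rank 27878). None was a reproducible peak. Of 17 neuronal genes on X, 4 had a member, against 3 of 15 on the autosomes; these were unc-2, described above, mec-4, a touch receptor channel (rank 3454), mec-2, a stomatin-like partner of that channel (rank 18570), and dop-1, a dopamine receptor (rank 14572).

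For the tissue lists other than collagen and cuticle, the numbers on X are too small to set against the 21.7% of all X genes. Of 7 vitellogenin and intestine genes on X, elt-2, the GATA factor of the intestine, had a member (rank 23317), against 3 of 7 on the autosomes. Of 9 muscle genes it was tnt-2, a troponin T gene (rank 25332), against 5 of 12. Of 32 collagen and cuticle genes it was col-181 (rank 19703), or 3.1%, against 37 of 138, while replicates 1 and 2 gave 2 and 5. None of the 4 heterochronic genes on X had one, against 3 of 8.

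Germline and housekeeping lists had hardly any genes on X. The germline list had 2, of which meg-2, a germ granule gene, had a member at rank 22917, against 30 of 33 autosomal members, 14 of them with a reproducible peak. The ribosomal protein list had rpl-11.2 and rpl-25.1, both with a member (ranks 9615, shared with linc-78, and 15904), against 75 of 77, 43 of them with a reproducible peak. Of 4 histone genes, his-24, a linker histone, had a member at rank 5358, and his-38 and his-40, which belong to a multicopy family whose reads may be hard to place, shared one at rank 25559, against 12 of 68. The major sperm protein list had no gene on X, and none of its 31 autosomal genes had a region in the pooled list or in replicate 1, while 1 did in replicate 2. Among the list genes on X, unc-2 alone had a reproducible peak. Several of these counts moved between lists: the intestine list had 3 X genes with a region in replicate 1 and 0 in replicate 2, the collagen and cuticle list had 2 and 5, the dosage compensation list 3 and 1, and the germline list 0 and 0. The members at meg-2, fox-1, dop-1 and the his-38 and his-40 pair had no region in either replicate list. Those at mec-4, elt-2, tnt-2 and ceh-39 had none in replicate 2, and those at col-181, rpl-11.2 and rpl-25.1 had none in replicate 1.

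At the tRNA limit itself the regions were weak, though M163.14, at 536 bp, was not far outside it. The regions nearest the limit on the inside had summits 496 and 499 bp from a tRNA start with signals of 16 and 17.5, and those just outside had 508 and 528 bp with signals of 17.3 and 15.5. Of the 237 X regions inside the limit, 114 were reproducible peaks, with a median signal of 80.5, beside 82.2 for the 82 leading members and 84.6 for the autosomal leading regions. The best rank inside the limit was 233.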

How the data were processed

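The deposited signal per region (column 7 of the narrowPeak lists) is the authors' score, on a scale not stated. Per the file headers and labels, the authors called regions per replicate and on pooled replicates on ce11; the sources used here do not name the aligner or the caller. A possible control that the labels name was not analysed here. The p-value and q-value columns were not used, nor were the ce10 lists. Summits were the start plus the deposited offset plus 1, in 1-based coordinates; at 99.8% of members that is the middle of the region. Genes came from Ensembl release 115 (WBcel235, the ce11 assembly), sequence and tRNA pseudogenes from RefSeq WBcel235. A summit took 1 place, in the order small RNA gene, coding exon, UTR, intron, other noncoding gene, pseudogene, intergenic. Python 3.11.15, pandas 2.3.3, numpy 2.4.6 and scipy 1.17.1 were used, and the word search was tested on simulated sequence. The members, gene lists and named genes (genes at the 20 highest members, up to 3 per class or list, the 5 highest members without a start and those at the tRNA limit) were chosen with earlier results of these data known. Further members of the leading group were named after their values were seen. The names sex-2 and let-7 were not matched.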

Additional observations from a re-analysis of the deposited data

How the results depend on the processing

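No paired analysis was possible because both replicates form 1 group. Each of 11 results was recomputed under the alternatives, 87 values in all; 46 moved by less than the SD of both replicates (for the overlap, less than its binomial interval). X stayed less dense than the autosomes in all 8 alternatives: the ratio was 0.629 to 0.705 leaving out a replicate, 0.331 in reproducible peaks and 0.478 in the 10000 highest regions. The share of regions on X was 11.9 to 13.1% leaving out a replicate, 6.63% in reproducible peaks and 9.31% in the 10000 highest. Leaving out a replicate gave 2.62 to 2.69% of X regions in the top 1500, a median rank of 56.0 to 56.5%, 17.7 to 18.6% near a protein-coding start, 71.4 to 71.6% near none, 0.755 to 0.971% near a snRNA, snoRNA or miRNA start, 41.2 to 42.6% intergenic, 19.9 to 23.6% of genes and 3.04 to 3.61% with a word.

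Without the tRNA limit, which adds the tRNA sites themselves, 196 of 3778 X regions (5.19%) were in the top 1500, against 1277 of 26194 autosomal ones. The X share was then not below the autosomal one. The density ratio over all regions was 0.672, and it was not lower among the top 1500. The median rank on X was 53.4%, 67.9% of X regions had no start near and 31.3% overlapped both replicates. Removing overlaps gave a median rank of 55.7% and 72.7% with no start. A start window of 200 bp gave 7.31% near a protein-coding start, 87.4% near none, 0.508% near a small RNA start and 9.45% of genes; 1000 bp gave 31.6%, 52.3%, 1.44% and 35.6%. In reproducible peaks these were 9.76%, 76.8%, 8.54% and 0.293%, with 41.5% intergenic and 98.8% in both replicates; in the 10000 highest, 20.6%, 69.2%, 1.69% and 6.77%, with 46.8% and 63.1%. An overlap of 50% of the region left 21.6% in both replicates, and a window of 100 bp to either side gave 5.34% with a word. Depth per sample is unknown, and shares over 82 leading members have wide intervals.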
